A study of Mus musculus with 16 samples.

Results

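Of 2535 H2AK119ub1 regions listed for young hematopoietic stem cells (HSCs) on chromosomes 1-19, 1224 (48.3%) had no base in common with any region listed for aged HSCs. This share was 28.0% when an aged region within 1 kb also counted as shared, and 81.9% when the aged list was reduced to the same number of regions by q-value. These 1224 young-only regions are described here. They were selected on the presence of the mark in one list and its absence from the other, so their width, enrichment and distance to aged regions are given as a description. The other 1311 young regions overlapped an aged region by at least 1 bp and are called shared. The aged list held 16796 regions on the same chromosomes, of which 15549 had no young counterpart and are called aged-only.

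The HSCs were bone marrow cells of C57BL/6 mice, 10 weeks old (young) or 20 months old (aged), sorted as Sca-1+ c-kit+ CD150+ and negative for lineage markers, CD34, CD48, Flt3 and what the labels call IL-7. The labels name no transgene and no treatment for either age. Chromatin immunoprecipitation sequencing (ChIP-seq) was done for H2AK119ub1, H3K27me3 and H3K4me3 in 2 libraries of each mark at each age, beside 2 input libraries of each age. The peaks came as 1 pooled list per mark and age, so no spread between libraries could be measured, neither the ages nor the classes of regions were compared by a test, and the lists give no read depth. Intervals below are 95% Wilson intervals for shares and order-statistic intervals for medians. They cover counting error over regions only, and neighbouring regions are not independent. Where no gene of a list had a region, the upper limit given is 3 divided by the number of genes, not a Wilson limit. The markers of the sorted cells are surface proteins and were not checked with these histone marks.

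H2AK119ub1 is histone H2A carrying 1 ubiquitin on a lysine of its C-terminal tail, and is written by Polycomb repressive complex 1 through RING1A or RING1B. H3K27me3, trimethylation of histone H3 at lysine 27, is written by Polycomb repressive complex 2 through EZH1 or EZH2, and the complexes can each bind the mark of the other. Both marks typically cover CpG-rich promoters of silent developmental regulators, and in HSCs Polycomb proteins such as BMI1 keep the Cdkn2a locus silent and sustain self-renewal. H3K4me3 marks the promoters of active genes, and is found together with H3K27me3 at so-called bivalent promoters.

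The 10 young-only regions with the highest −log10 q-value (the significance given to a region by the authors' peak caller after adjustment for multiple testing) included several in or near genes of developmental transcription factors. The top region was in an intron of Tead1, a DNA-binding partner of YAP and TAZ, at chr7:112705737-112706072 (−log10 q 3.94, 4.23-fold enrichment). It was followed by intergenic regions near Otx1, a homeobox gene of the forebrain, at chr11:21986055-21986681 (−log10 q 3.77) and near Gsx2, a homeobox gene of the ventral forebrain, at chr5:75073614-75073940 (−log10 q 3.71). The promoters of Hoxa13 (chr6:52261326-52261537, 446 bp from the start site, −log10 q 3.64) and Hoxb1 (chr11:96364933-96365144, 608 bp from the start site, −log10 q 3.54) were also among the 10. The sequences of these 5 regions are shown because they carry the strongest young-only calls and their best-placed promoter calls. Each is the plus strand of GRCm38 (mm10) from RefSeq, 5′ to 3′, whole or the central 300 bases, with CpG dinucleotides in capitals.
Tead1 intron, chr7:112705755-112706054: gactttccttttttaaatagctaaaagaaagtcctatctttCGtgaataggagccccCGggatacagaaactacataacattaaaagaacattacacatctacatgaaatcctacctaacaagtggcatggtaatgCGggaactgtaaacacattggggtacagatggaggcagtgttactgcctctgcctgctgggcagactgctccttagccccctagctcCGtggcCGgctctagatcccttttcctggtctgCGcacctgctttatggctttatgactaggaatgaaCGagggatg
Otx1 neighbourhood, chr11:21986219-21986518: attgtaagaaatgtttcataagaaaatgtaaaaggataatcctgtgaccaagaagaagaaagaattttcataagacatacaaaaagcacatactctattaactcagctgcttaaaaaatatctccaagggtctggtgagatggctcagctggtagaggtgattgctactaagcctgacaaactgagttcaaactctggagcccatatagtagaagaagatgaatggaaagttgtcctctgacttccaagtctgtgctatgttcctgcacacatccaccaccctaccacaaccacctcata
Gsx2 neighbourhood, chr5:75073628-75073927: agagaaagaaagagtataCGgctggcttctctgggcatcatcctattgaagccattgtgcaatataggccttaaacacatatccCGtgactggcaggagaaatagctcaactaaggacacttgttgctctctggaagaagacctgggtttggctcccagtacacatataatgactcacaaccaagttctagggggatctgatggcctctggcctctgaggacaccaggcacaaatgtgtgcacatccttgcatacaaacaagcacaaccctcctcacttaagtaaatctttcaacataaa
Hoxa13 promoter, chr6:52261326-52261537: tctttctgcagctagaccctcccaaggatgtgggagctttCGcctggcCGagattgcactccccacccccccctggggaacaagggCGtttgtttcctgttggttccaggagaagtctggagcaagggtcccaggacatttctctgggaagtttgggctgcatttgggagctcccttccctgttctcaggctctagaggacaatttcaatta
Hoxb1 promoter, chr11:96364933-96365144: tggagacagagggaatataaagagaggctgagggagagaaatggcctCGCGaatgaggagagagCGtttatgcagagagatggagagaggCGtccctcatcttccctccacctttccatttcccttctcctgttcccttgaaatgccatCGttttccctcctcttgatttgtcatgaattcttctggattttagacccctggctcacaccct

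The 300 bases of the Tead1 intron held 7 CpGs, those near Gsx2 held 2 and those near Otx1 held none. The 212 bp at Hoxa13 and the 212 bp at Hoxb1 held 3 and 5 CpGs. The observed CpG count over that predicted from the C and G content (CpG observed over expected) was 0.186 at Hoxa13 and 0.385 at Hoxb1. Both were below 0.6, a ratio commonly used to define CpG islands.

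The remaining 5 of the 10 were intergenic near Jag2 (a Notch ligand), Barx1 and Nkx2-9 (homeobox genes), in an intron of Olfm2 (an olfactomedin), and in an intron of E2f2 (a cell cycle transcription factor). Across all 10, −log10 q ran from 3.44 to 3.94, fold enrichment from 3.97 to 4.44 and width from 200 to 627 bp. The young H3K27me3 list overlapped 8 of the 10 and the aged H3K27me3 list overlapped 6. The regions near Jag2 (chr12:112931150-112931372) and in E2f2 (chr4:136176635-136176838) overlapped H3K27me3 at neither age. An aged H2AK119ub1 region lay within 1 kb of 8 of the 10. The E2f2 region was 26913 bp away from the nearest aged region, and the Tead1 region 5099 bp.

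The widest young-only region covered the promoter of Ebf4, an EBF family transcription factor gene, at chr2:130296272-130297766 (1495 bp, −log10 q 1.89). It was followed by a coding exon of the endothelial nitric oxide synthase gene Nos3 (chr5:24367163-24368216, 1054 bp) and an intron of Ebf3 (chr7:137308053-137308985, 933 bp). Regions of 885 bp downstream of Hoxb1 (chr11:96372153-96373037) and of 826 bp in an intron of Hoxb9 (chr11:96273101-96273926) were also among the 10 widest, which reached down to 789 bp. Of the 10, 7 overlapped young H3K27me3 and 4 overlapped aged H3K27me3. The widest regions were not those with the highest q-values: their −log10 q ran from 1.63 to 2.65.

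Young-only regions were narrower than shared young regions, with medians of 280.5 bp (272 to 289) and 371 bp (358 to 382). Young-only regions had a median fold enrichment of 3.33 (3.30 to 3.34), shared regions of 3.16 (3.14 to 3.18), and median −log10 q was 1.79 and 1.78. The q-values of both classes were thus alike at the median. A narrower region has fewer bases that an aged region could overlap, so the difference in width belongs to the choice of the members and supports nothing. The lists also differed in stringency. The lowest −log10 p-value was 4.18 for young regions and 3.43 for aged ones, and regions with a −log10 q of 1.7 to 1.9 had a median −log10 p of 5.42 (501 young regions) and 4.78 (2634 aged regions), all chromosomes included. The part of this difference in which regions became members was not tested.

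Most young-only regions lay close to aged regions. The median gap to the nearest aged H2AK119ub1 region was 1526 bp (1334 to 1711) among members, 514 members (42.0%) were within 1 kb, 859 (70.2%) within 5 kb and 190 were more than 20 kb away. At the edge of the rule, a member over an exon of the noncoding gene Gm14114 (chr2:146839211-146839530) abutted an aged region with a gap of 0 bp, and the member near Barx1 was 1 bp away. Just outside, shared regions in Ripk4 and Map6 overlapped an aged region by 3 bp each, and one in Tfap2a by 5 bp. Gaps under 0.2 kb were found for 176 members, and gaps of 0.2 to 0.5 kb for 169. The lists give no enrichment in aged HSCs at a place that is not listed, so the level of the mark there was not measured.

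Young-only regions were mostly scattered. Joined over gaps of up to 5 kb, 1001 members stood alone, 82 pairs and 17 triples formed, and 2 runs held 4 members each. These runs were at Foxf2, a forkhead gene (chr13:31621012-31627879), and at Hoxc4 and beside Hoxc5 (chr15:103021395-103031381). A shared young region was within 5 kb of 278 members (22.7%). Counting members within a gene body or 5 kb of it, Hoxd3 had 6, and Hoxc5, Cdh22 (a cadherin), Magi1 (a junctional scaffold protein) and Fgfr2 (an FGF receptor) had 5 each. The gene model of Fgfr2 in the annotation is 2961 kb long, and the 18 members of Gm20388 fell in a model of 4435 kb, so these counts span neighbouring genes. The models of Hoxd3 (36.5 kb, with Hoxd4 inside) and Hoxc5 (50.0 kb, with Hoxc6 inside) also span neighbouring Hox genes. By chromosome, young-only regions made up from 28.8% (chromosome 13, 38 of 132 regions) to 59.1% (chromosome 7, 101 of 171) of the young regions.

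**Figure D1:**
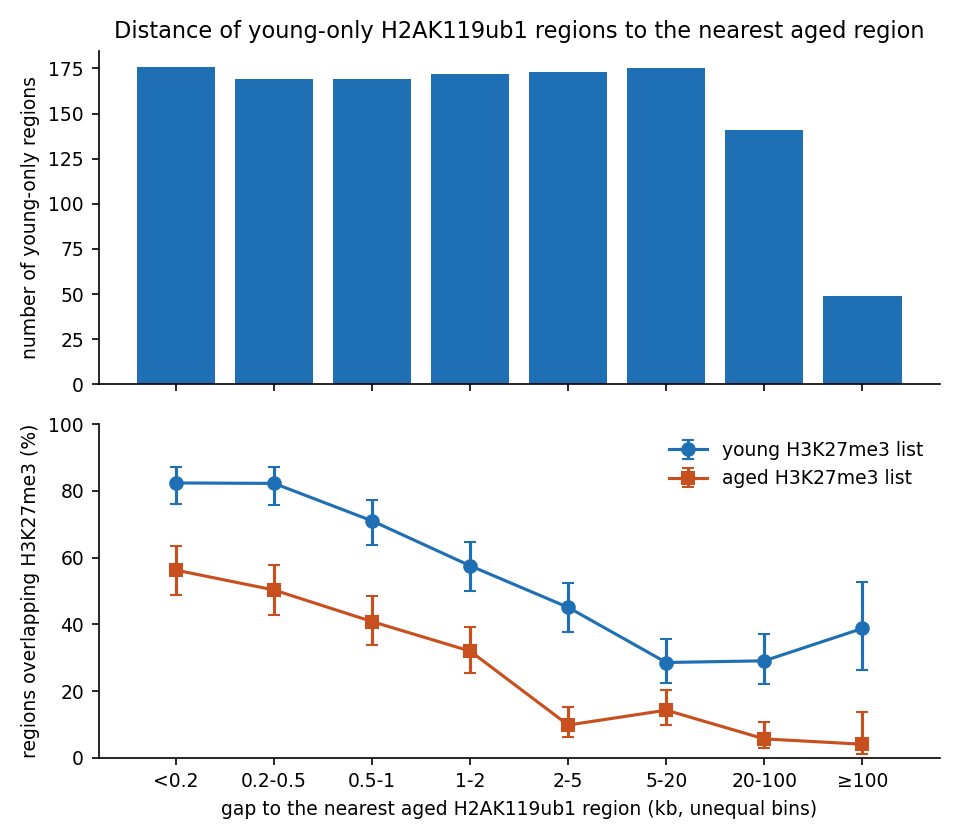
Number of young-only H2AK119ub1 regions (upper panel) and percent of them overlapping H3K27me3 (lower panel, bars 95% Wilson intervals) against the gap to the nearest aged H2AK119ub1 region in kb, in unequal bins. The share with young H3K27me3 goes from 82.4% below 0.2 kb to 28.6% at 5 to 20 kb, and is 38.8% at 100 kb or more. The share with aged H3K27me3 is lower in every bin.

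The H3K27me3 lists were not used in the choice of the members. The choice is still linked to that mark, because 43.7% of aged H2AK119ub1 regions overlapped young H3K27me3. How much this link adds to the differences between classes was not tested. The young H3K27me3 list overlapped 691 young-only regions, 56.5% (53.7 to 59.2), against 1209 shared young regions, 92.2% (90.6 to 93.5), and 75.0% of all young regions. Aged-only regions overlapped young H3K27me3 at 39.8% (39.0 to 40.6), below the share in young-only regions. Young H3K27me3 covered 1.48% of the sequenced bases of these chromosomes. Counted at the centre base of each region, the young-only share was 49.8%.

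The aged H3K27me3 list overlapped 360 young-only regions, 29.4% (26.9 to 32.0), against 973 shared regions, 74.2% (71.8 to 76.5), and 52.6% of all young regions. This list is shorter than the young one, with 15926 against 50640 regions and 0.351% of sequenced bases covered. With the young list reduced to the number of aged regions by q-value, young H3K27me3 overlapped 45.8% (43.1 to 48.6) of young-only regions, and the remaining difference from the 29.4% of the aged list was not tested. Taking both ages together, 348 young-only regions (28.4%) had H3K27me3 at both ages, 343 (28.0%) in the young list only, 12 (0.980%) in the aged list only and 521 (42.6%) in neither. Among shared regions these shares were 73.5%, 18.8%, 0.763% and 7.02%. The lack of H3K27me3 at either age was thus the largest class of young-only regions and a small class of shared ones.

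**Figure D2:**
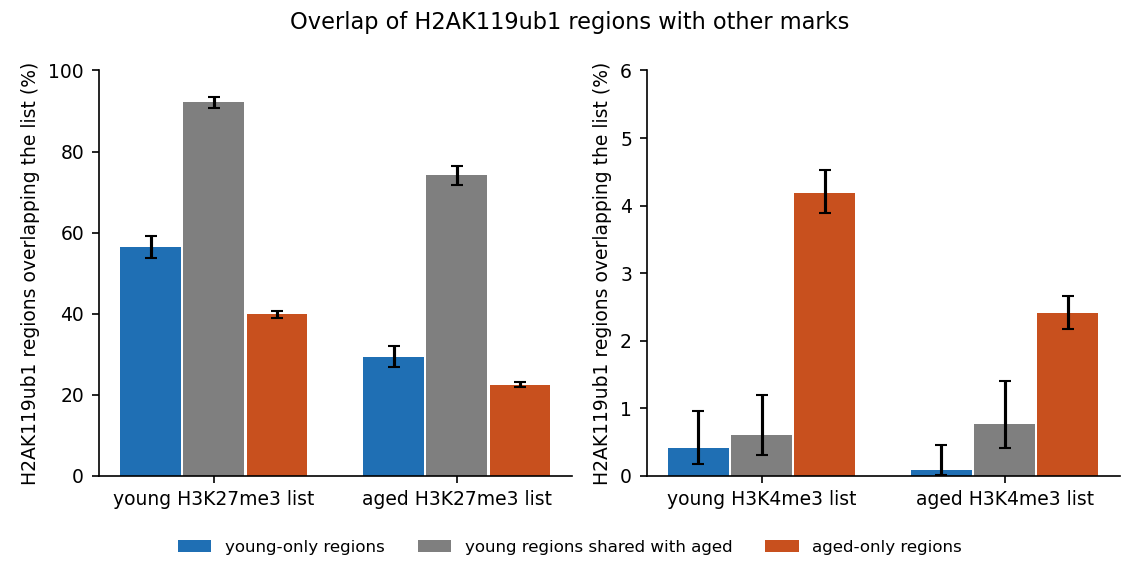
Percent of young-only (1224), shared young (1311) and aged-only (15549) H2AK119ub1 regions that overlap the H3K27me3 lists (left) and the H3K4me3 lists (right, axis to 6%) by at least 1 bp; bars are 95% Wilson intervals. Young-only regions lie between the other classes for H3K27me3 (56.5% in the young list) and are lowest for H3K4me3 (0.408% in the young list).

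The overlap with H3K27me3 moved with the gap to the aged H2AK119ub1 regions. Within 1 kb of an aged region 404 of 514 members (78.6%, 74.8 to 81.9) overlapped young H3K27me3, beyond 1 kb 287 of 710 (40.4%, 36.9 to 44.1), and beyond 20 kb 60 of 190 (31.6%, 25.4 to 38.5). For aged H3K27me3 the share was 56.3% (48.9 to 63.4) below 0.2 kb and 9.83% (6.23 to 15.2) at 2 to 5 kb. It was 14.3% (9.87 to 20.2) at 5 to 20 kb and 4.08% (1.13 to 13.7) among the 49 members beyond 100 kb. The fall was not steady for either list. The young share was 28.6% (22.4 to 35.7) at 5 to 20 kb and 38.8% (26.4 to 52.8) among those 49 members. As the plot of H3K27me3 against gap shows, the interval of the first bin overlapped none of those from 1 kb on, for either list.

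The classes also differed among regions of similar width. At 200 to 250 bp, 48.4% (43.9 to 52.9) of 467 young-only and 90.9% (86.9 to 93.8) of 275 shared regions overlapped young H3K27me3. At 400 to 600 bp the shares were 72.9% (66.3 to 78.6) and 93.7% (90.6 to 95.8), and at 600 bp or more 80.6% (63.7 to 90.8, 31 regions) and 98.1% (95.3 to 99.3, 216 regions). By −log10 q, the share among young-only regions was 63.0% below 1.5, 52.9% at 1.5 to 2, 57.2% at 2 to 2.5 and 62.2% above, with no steady trend. Shared regions were between 89.9% and 96.2% in the same bins.

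The young-only regions with young H3K27me3 lay in regions of that mark with a larger median width than all young H3K27me3 regions. The 691 members fell in 631 young H3K27me3 regions with a median width of 2125 bp (1917 to 2384), against 411 bp (408 to 413) for all 50640 and 3606 bp (3286 to 3911) for the 793 that held shared regions. A wide region is more likely to meet any other region, and this part was not tested. Of the 631, 328 (52.0%) were over 2 kb wide, and 525 members (76.0% of 691) lay entirely inside. Aged H3K27me3 overlapped 419 of the 631 (66.4%, 62.6 to 70.0), against 16.7% of all young H3K27me3 regions. An aged H2AK119ub1 region lay elsewhere in 330 of the 631 (52.3%, 48.4 to 56.2), whose median width was 4465.5 bp. In the other 301, of median width 874 bp, no aged H2AK119ub1 region was listed anywhere. Of all young H3K27me3 regions, 9.31% (9.06 to 9.57) held one.

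The 521 members with H3K27me3 at neither age lay at varied distances from that mark, which were not compared with other genomic positions. The median gap of these members to the nearest young H3K27me3 region was 14874 bp (10482 to 21730). Of them, 120 (23.0%) were within 1 kb, 200 (38.4%) within 5 kb and 243 (46.6%) beyond 20 kb. They were 258 bp wide at the median, against 309.5 bp for members with H3K27me3 at both ages, and their median gap to an aged H2AK119ub1 region was 4651 bp against 450 bp. Introns held 40.1% and intergenic sequence 35.9% of them. They included the Jag2 and E2f2 regions above and the Kdm2b promoter below.

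Few young-only regions overlapped H3K4me3, whose lists covered 0.161% (young) and 0.0855% (aged) of the sequenced bases. The young H3K4me3 list overlapped 5 young-only regions, 0.408% (0.175 to 0.953), against 8 shared regions, 0.610% (0.310 to 1.20), and 0.513% of all young regions. Of aged-only regions 652, 4.19% (3.89 to 4.52), overlapped young H3K4me3. The aged H3K4me3 list overlapped 1 young-only region, 0.0817% (0.0144 to 0.461). At these counts, the intervals of young-only and shared regions overlapped. Of the 5, those at Zfp663 (a zinc finger gene, chr2:165368295-165368608), Nkx6-2 (a homeobox gene, chr7:139583347-139583731), Prox1 (a homeobox gene of lymphatic endothelium, chr1:190168781-190169080) and Atoh7 (a bHLH gene of retinal ganglion cells, chr10:63099710-63099979) were at promoters, and that in Sim1 (a bHLH-PAS gene, chr10:50911265-50911464) was in an intron. All 5 also overlapped young H3K27me3, those at Nkx6-2 and Prox1 aged H3K27me3 too, and that at Prox1 was the one with H3K4me3 in the aged list. The Zfp663 and Atoh7 regions were 32961 bp and 57547 bp from any aged H2AK119ub1 region.

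Promoters held a smaller share of young-only than of shared regions. The start of a protein-coding transcript was no more than 1 kb from 212 members, 17.3% (15.3 to 19.5), against 302 shared regions, 23.0% (20.8 to 25.4), and 24.6% (23.9 to 25.3) of aged-only regions. Promoters so defined take up 2.57% of the sequenced bases. A region counted from 1 bp inside a promoter, so shares of regions and of bases are not on the same scale. Introns held 470 members (38.4%) and intergenic sequence 416 (34.0%), followed by UTRs with 52 (4.25%), exons of other transcripts with 38 (3.10%) and coding exons with 36 (2.94%). The median distance to a start site was 5508 bp (4777 to 6196) for young-only and 2897 bp (2674 to 3254) for shared regions. At 10 to 100 kb lay 31.8% (29.2 to 34.4) of young-only and 17.8% (15.8 to 19.9) of shared regions. Members with H3K27me3 in the young list only were at promoters at 23.6% (19.4 to 28.4), those with it at both ages at 14.7% (11.3 to 18.8) and those with it at neither at 15.2% (12.3 to 18.5).

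**Figure D3:**
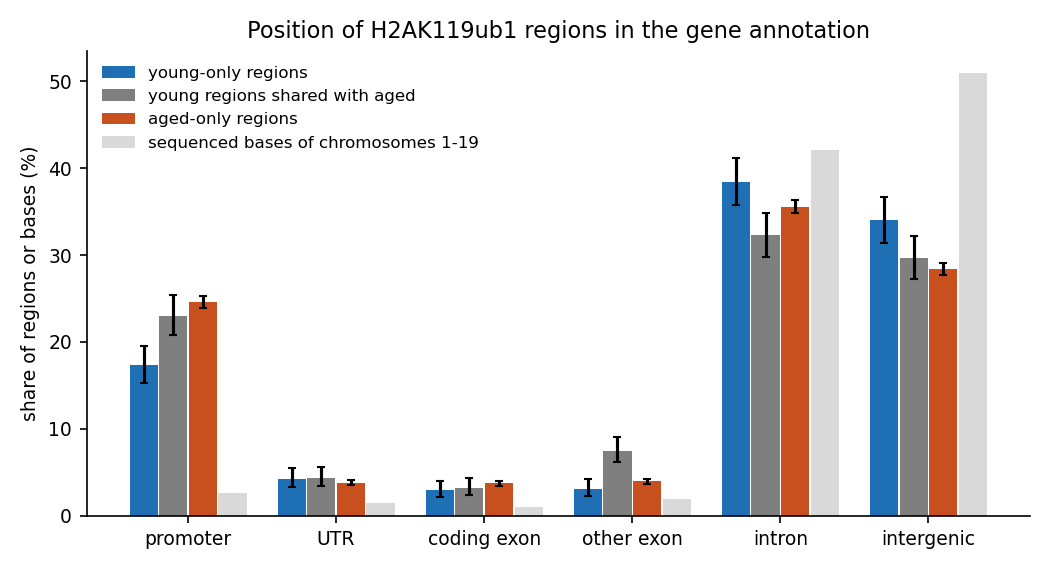
Percent of young-only, shared young and aged-only H2AK119ub1 regions in each class of the gene annotation (bars 95% Wilson intervals), beside the percent of sequenced bases of chromosomes 1-19. Promoters hold 17.3% of young-only regions and 2.57% of bases, and young-only regions exceed shared ones in introns (38.4% and 32.3%). A region counts from 1 bp inside a promoter, so shares of regions and of bases are not on the same scale.

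The sequence under young-only regions was poorer in CpG than under shared regions, except where H3K27me3 was at neither age. Median CpG observed over expected was 0.192 (0.184 to 0.202) in young-only, 0.293 (0.277 to 0.307) in shared and 0.240 (0.236 to 0.244) in aged-only regions, and 0.194 over all bases of these chromosomes. A ratio of at least 0.4 was found in 185 young-only regions, 15.1% (13.2 to 17.2), and 417 shared regions, 31.8% (29.3 to 34.4). At 0.6 or more there were 50 (4.08%, 3.11 to 5.35) and 124 (9.46%, 7.99 to 11.2). No CpG at all was present in 107 young-only regions, 8.74% (7.29 to 10.5), and in 34 shared regions, 2.59% (1.86 to 3.60). Among regions of 200 to 250 bp, the median ratio was 0.173 in young-only and 0.307 in shared regions, a difference present at similar width. GC content differed less, at 49.9% (49.6 to 50.2) and 50.6% (50.4 to 51.0), against 41.9% over all bases.

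In young-only and in shared regions alike, CpG content moved with H3K27me3. Among young-only regions the median ratio was 0.240 (0.206 to 0.266) with H3K27me3 at both ages, 0.196 (0.173 to 0.214) with it in the young list only and 0.175 (0.161 to 0.186) with it at neither age. Among shared regions these medians were 0.313 (0.298 to 0.329), 0.273 (0.245 to 0.323) and 0.180 (0.163 to 0.216), so that the intervals of the classes overlapped where H3K27me3 was at neither age. GC content ran the other way, at 48.0%, 49.8% and 50.9% in young-only and 50.3%, 51.8% and 52.8% in shared regions. Repeats and low-complexity sequence, given as soft-masked letters in the reference, took up a median of 11.0% of a young-only region and 10.2% of a shared one, below the 33.5% of all bases. At least 50% was masked in 102 young-only regions, 8.33% (6.91 to 10.0), and 34 shared regions, 2.59% (1.86 to 3.60). Reads placed in repeats can align to several sites, and the part of alignment in the young-only calls was not tested.

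**Figure D4:**
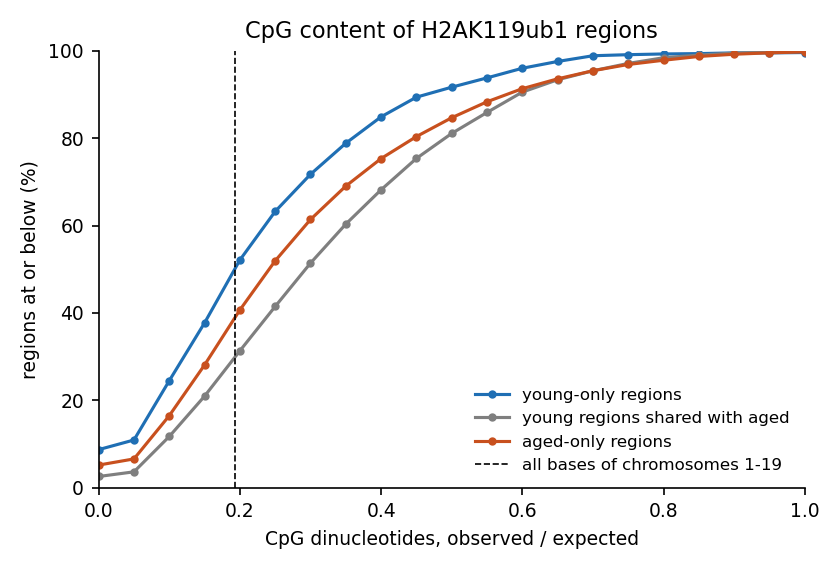
Cumulative percent of young-only, shared young and aged-only H2AK119ub1 regions against CpG observed over expected, with the value over all bases of chromosomes 1-19 (0.194) as a dashed line. The young-only curve lies above the others up to 0.6, with a median of 0.192 against 0.293 for shared regions.

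Members with −log10 q of at least 2 and with many or no CpGs are shown to make this range visible, as whole regions on the plus strand with CpGs in capitals. A coding exon of AI464131 had 17 CpGs in 203 bp (CpG observed over expected 1.12). The regions near Jag2 and Barx1 held none, and were taken among several without CpG for their q-values.
AI464131 coding exon, chr4:41498441-41498643: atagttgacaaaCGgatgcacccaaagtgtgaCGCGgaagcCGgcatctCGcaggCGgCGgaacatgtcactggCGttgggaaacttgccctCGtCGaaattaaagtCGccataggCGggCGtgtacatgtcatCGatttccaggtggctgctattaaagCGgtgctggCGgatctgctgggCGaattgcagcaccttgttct
Jag2 neighbourhood, chr12:112931150-112931372: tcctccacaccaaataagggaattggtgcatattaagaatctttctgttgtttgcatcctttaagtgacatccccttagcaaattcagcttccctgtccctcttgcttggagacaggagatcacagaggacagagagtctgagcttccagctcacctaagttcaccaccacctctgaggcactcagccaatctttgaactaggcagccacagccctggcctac
Barx1 neighbourhood, chr13:48657189-48657401: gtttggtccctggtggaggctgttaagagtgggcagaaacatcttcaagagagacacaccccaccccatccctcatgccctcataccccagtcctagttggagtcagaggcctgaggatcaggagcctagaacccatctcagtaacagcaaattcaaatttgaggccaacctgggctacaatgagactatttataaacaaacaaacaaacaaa

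The AI464131 region was 52 bp from an aged H2AK119ub1 region and carried H3K27me3 at both ages. The Barx1 region, with no CpG and 39.9% of its bases masked, carried H3K27me3 at both ages. CpG content did not sort these individual regions by H3K27me3.

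A young-only region lay at a promoter of 215 of 20722 protein-coding genes (1.04%). Another region of the aged H2AK119ub1 list lay at a promoter of 126 of these genes (58.6%), against 15.1% of all genes with any aged region, and 22 of the 215 also had a shared young region there. For the other 89 genes no aged H2AK119ub1 was listed at a promoter. Young H3K27me3 was at a promoter of 163 of the 215 (75.8%) and aged H3K27me3 of 111 (51.6%), against 16.1% and 8.52% of all genes. Young H3K4me3 was at 43 (20.0%), against 35.8% of all genes. Of 264 genes with a shared young region at a promoter, 259 (98.1%) had aged H2AK119ub1 and 251 (95.1%) young H3K27me3.

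Most families of developmental transcription factors showed higher counts than the 1.04% of all genes. A young-only region was at the promoter of 6 of 39 Hox genes (15.4%), which set position along the body axis: Hoxa13, Hoxb1, Hoxd3, Hoxd4, Hoxd8 and Hoxd13. It was also at 2 of 12 LIM homeobox genes (16.7%, Lhx5 and Lhx6), 2 of 16 T-box genes (12.5%, Tbx4 and Tbx20), 7 of 81 NK, Irx, Zic and related homeobox genes (8.64%, among them Six3, Nkx6-2 and Tlx1), 3 of 40 bHLH genes (7.50%, Atoh7, Hand1 and Hes3), 1 of 18 Sox genes (Sox17) and 1 of 5 GATA genes (Gata6). In contrast, 0 of 9 Pax genes and 0 of 41 forkhead genes had one at a promoter, which allows shares of up to 33.3% and 7.32%, although 4 Pax (44.4%) and 7 forkhead genes (17.1%) had one within 5 kb of the gene body, as did 4.12% of all protein-coding genes. Shared young regions were at promoters of each of these families more often than young-only ones. Their shares were 28.2% for Hox, 50.0% for LIM homeobox, 37.5% for T-box and 33.3% for NK and related homeobox genes. They were 12.5% for bHLH, 22.2% for Sox, 40.0% for GATA, 55.6% for Pax and 4.88% for forkhead genes, against 1.27% of all genes. The gene lists are small, and the counts beside 1.04% of all genes are a description.

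Lists of signalling, ion channel, adhesion, collagen and receptor genes had a young-only region at a promoter in 0 to 5.26% of genes. Among 38 WNT genes, Wnt10a and Wnt16 (5.26%) had a young-only region at a promoter, and no WNT gene had a shared one. Wnt10a had 2 such regions, at chr1:74793952-74794375 and chr1:74792384-74792808. Ptch1, the Hedgehog receptor, was the 1 of 41 FGF, SHH and Notch genes, and 0 of 50 TGF-beta and BMP genes had one, which allows up to 6.00%. Of 194 ion channel genes 5 (2.58%) had one: Cacna2d2 and Cacnb3, subunits of calcium channels, Grin2c and Grin2d, subunits of the NMDA receptor, and Kcnk15, a potassium channel. None of 99 cadherin, 42 collagen, 89 cytokine and chemokine receptor and 1086 olfactory receptor genes had one, which allows up to 3.03%, 7.14%, 3.37% and 0.276%. The body counts of the cadherins (22 of 99) are inflated by the overlapping transcripts of the Pcdhg cluster.

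Genes of blood cell regulation are set beside 1.04% of all genes with a young-only region at a promoter and 4.12% with one within 5 kb of the gene body. Of 51 genes of hematopoietic transcription factors, 1 (1.96%) had a young-only region at a promoter, Erg, an ETS factor needed by HSCs. It lay 814 bp from the start site (−log10 q 1.63, 745 bp from an aged region). It overlapped H3K27me3 in the young list and not in the aged one, although H3K27me3 was elsewhere at an Erg promoter in the aged list, and H3K4me3 was at an Erg promoter at both ages. Bcl11b, Ikzf3 and Runx3, of the lymphoid lineages, had one within 5 kb of the gene body, which with Erg made 4 of 51 (7.84%). Cdkn2a, which encodes the cell cycle inhibitors p16 and p19 and is a Polycomb target in HSCs, was the 1 of 7 CDK inhibitor genes (14.3%, 435 bp from a start site, −log10 q 1.57, 415 bp from an aged region). The region itself overlapped H3K27me3 in the young list only, but aged H3K27me3 and another region of the aged H2AK119ub1 list were both at a Cdkn2a promoter. The other 2 members in Cdkn2a, both in introns, overlapped H3K27me3 at both ages. Kdm2b, which encodes the CpG-binding subunit of a Polycomb repressive complex 1 variant, was the 1 of 29 Polycomb genes (3.45%, chr5:122952650-122952888, 144 bp from a start site), with H3K27me3 at neither age in the region and H3K4me3 at a promoter in the young list. The nearest aged H2AK119ub1 region was 469 bp away, and the aged list also had a region at a Kdm2b promoter.

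**Figure D5:**
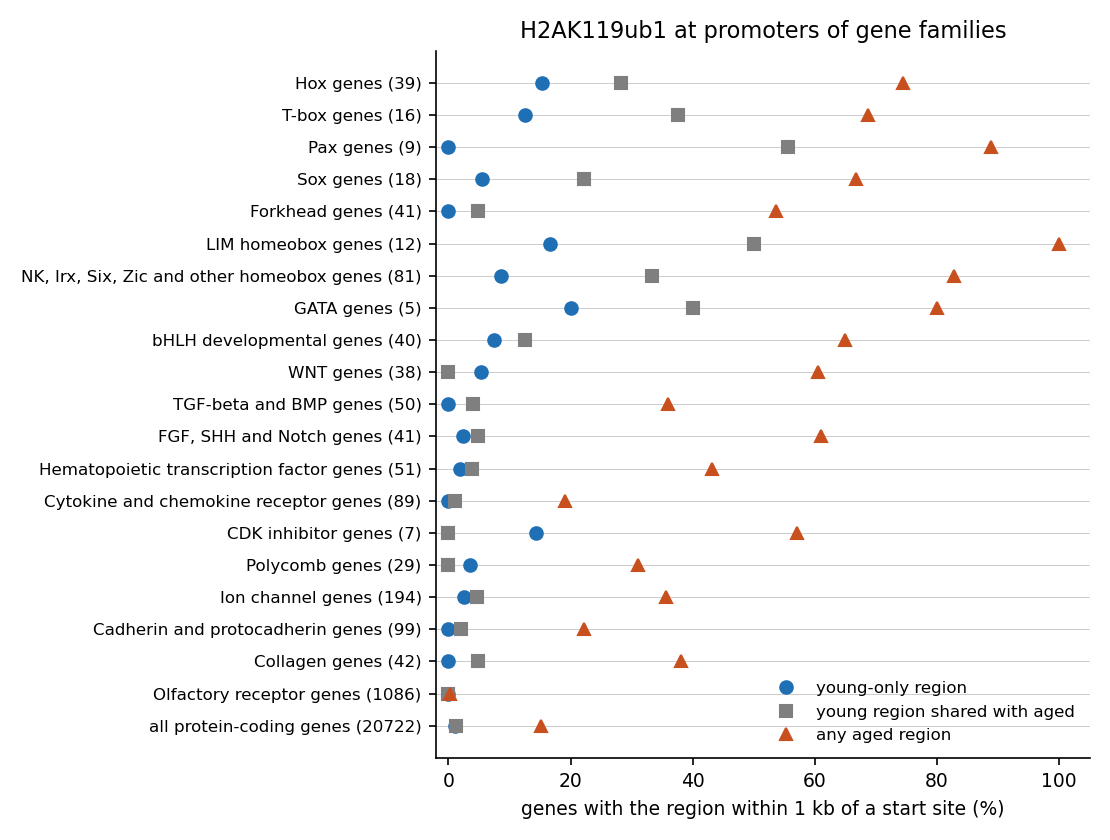
Percent of the genes of each family (number of genes in brackets) with an H2AK119ub1 region within 1 kb of a start site, for young-only regions, young regions shared with aged, and any aged region. Young-only regions reach 20.0% at most (1 of 5 GATA genes) and are at 1.04% over all protein-coding genes, and in each family but the olfactory receptors the aged list marks more than 15% of genes.

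Over all lists, 33 genes had a young-only region at a promoter. In 32 of them that region overlapped young H3K27me3, the exception being Kdm2b, and in 14 it overlapped aged H3K27me3. Over all 215 genes with a young-only region at a promoter, that region overlapped H3K27me3 in the young list at 134 and in the aged list at 53. Aged H2AK119ub1 was listed elsewhere at a promoter of 27 of the 33, and a shared young region at 7. At Hoxd8 the young-only region (chr2:74703825-74704108) was 17 bp from an aged region, at Tbx4 (chr11:85886935-85887154) 32 bp and at Hand1, a heart and trophoblast bHLH gene, (chr11:57832296-57832993) 36 bp. The 6 genes without aged H2AK119ub1 at a promoter included Atoh7, Cacna2d2, Grin2c, Kcnk15 and Nkx6-2. Of these, Grin2c (chr11:115264580-115265053) was 10155 bp, Cacna2d2 (chr9:107398615-107399144) 2118 bp and Nkx6-2 1560 bp from the nearest aged region.

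The 190 members farther than 20 kb from any aged region had young H3K27me3 at 31.6%, against 56.5% of all members, as given above. Their median width was 270.5 bp (255 to 287), −log10 q 1.74 (1.68 to 1.80) and CpG observed over expected 0.169 (0.145 to 0.196), and 36 (18.9%) were at promoters and 64 (33.7%) intergenic.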

How the data were processed

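ChIP-seq for H2AK119ub1, H3K27me3 and H3K4me3 was performed by the authors. Their methods describe chromatin cut with micrococcal nuclease and sonication, name antibodies to H3K27me3 and H3K4me3, and do not name H2AK119ub1. Per the labels, reads were handled with Bowtie2 and MACS2 2.2.6 on mm10. Read filters and the peak-calling threshold are not given in the sources used here. The deposited lists give, per region, the fold enrichment as a linear ratio and −log10 p- and q-values, as means over a broad region. The broad lists carry 1 library number in their region names, so whether both replicates entered them is uncertain, and a region of 1 library could enter a list.

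Members and gene lists were chosen with earlier results of these data known. Overlaps of at least 1 bp and gaps were computed in Python 3.11.15 (pandas 2.3.3), checked against bedtools 2.31.1 and tested on simulated data. A promoter was 1 kb on either side of a protein-coding start site of GENCODE M21. A region went to the first class met: promoter, UTR, coding exon, other exon, intron, intergenic. Base composition and sequences came from RefSeq GRCm38.p6. Named regions were the 10 with the highest −log10 q, the 10 widest, those at promoters of listed genes (up to 20), those with H3K4me3, and the 3 nearest on each side of the rule. Genes were those with most members. Erg, Cdkn2a and the other listed genes past the first 20, the 2 Hox sequences and the distances of single members were added after values were seen. Alternatives were other overlap rules, q thresholds, list lengths, promoter widths and windows. Single-replicate lists were not analysed here, and some items that the naming rule selects are not reported here.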

Additional observations from a re-analysis of the deposited data

Results flagged for a closer look

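Chromosome X was outside the rule, which covers chromosomes 1-19. The young H2AK119ub1 list held 58 regions on X, of which 48 had no aged region in common with them, and 18 of the 48 overlapped young H3K27me3. The paper describes the mice as female, and no young region was listed on Y. The regions on X are a signal in data that the comparisons above do not use. With 1 pooled list per age, this signal was not tested.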

How the results depend on the processing

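Of 26 alternatives, 12 left the value within the interval of the main value (for the share of genes, within 1.5 times) and 14 moved it. The share of young regions without an aged counterpart (48.3%) was 28.0% when no aged region could lie within 1 kb, 63.2% when sharing needed 50% of the young region, 68.4% with a −log10 q of at least 2 in both lists and 81.9% with the aged list reduced to the number of young regions. The young H3K27me3 share (56.5%) was 49.8% at the centre base, 40.4% for members with no aged region within 1 kb and 45.8% with the young H3K27me3 list reduced to the length of the aged one. The aged H3K27me3 share (29.4%) was 21.2% at the centre base and 15.1% for members with no aged region within 1 kb, and the young H3K4me3 share was 0.0817% at the centre base. With promoters of 2000 bp, 30.1% of members were at promoters, and 1.78% of protein-coding genes had one, against 1.04% with 1 kb. Without members within 1 kb of an aged region, 0.574% of genes did, and the median CpG ratio was 0.174. Except where an alternative takes regions or bases away by its construction, the cause was not tested. No paired analysis was possible because 1 list per mark and age was used, with single-replicate lists not analysed here, and no replicate was therefore left out. Read depth is unknown, and it limits which regions are listed at all.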
